A study of Mus musculus with 5 samples.

Results

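The cytochrome P450 genes named by family, leaving out Cyp1a1, Cyp1a2, Cyp1b1, Cyp51 and the retinoic acid clearing Cyp26 genes, were followed in RNA sequencing of whole mouse lung. Symbols that start with Cyp and a digit picked out 98 of the 23183 listed genes, and 22 of them were measured, which means that they averaged 1 CPM or more over 5 libraries (CPM, counts scaled for library size with TMM factors). The libraries came from wild-type (WT) female BALB/c lungs, 1 library for each of PM10/OVA/Dex, PM10/OVA/CPX, PM10/OVA, PM10 and Control. PM10 is inhalable airborne particulate matter, OVA is the allergen ovalbumin, CPX is the abbreviation of the submitters for a chitinase-1 inhibitor, and Dex is dexamethasone, a synthetic glucocorticoid. PM10 went into the nose 4 times within 2 weeks in every group except Control, and OVA was injected into the peritoneum before it was given into the nose. CPX was injected 6 times in 3 weeks and Dex 3 times in the final week, both into the peritoneum, and lungs were collected 2 days after the last challenge. Control mice were untreated per the labels. The sources used here give no dose or age and do not say whether a library pools several animals. With 1 library per group there is no replicate check, no test between conditions was possible, and each difference below compares 2 libraries.

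P450 enzymes are haem proteins, most of them held in the endoplasmic reticulum, that insert an oxygen atom into lipophilic substrates with electrons passed on by the reductase Por. Members of the Cyp2 and Cyp3 families mainly oxidise drugs and pollutants, Cyp4 members hydroxylate fatty acids and eicosanoids at the end of the chain, and most of the remaining families make or break down steroids, bile acids and vitamin D. In mouse lung the secretory club cells of the airways are known for high levels of Cyp2f2, Cyp2b10, Cyp4b1 and Cyp2a5, and Cyp2f2 is the enzyme that turns inhaled naphthalene into a toxic epoxide there.

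Library totals ran between 11993222 and 16929068 counts, so that 1 count was worth 0.0577 to 0.0841 CPM, and the floor of 3 counts set for a gene at 0 was 0.173 to 0.252 CPM. The lung markers Scgb1a1 (club cells) and Sftpc (alveolar type 2 cells) were at 14277 to 25101 CPM and at 12728 to 13995 CPM. The Control library stood apart in markers of tissue that borders the lung: 8 summed heart muscle genes were at 541 CPM in PM10/OVA/Dex, 172 in PM10/OVA/CPX, 218 in PM10/OVA, 569 in PM10 and 2783 in Control. Summed fat, cartilage and large airway markers were also highest in Control and are given beside the genes they move with. Comparisons between the 4 libraries other than Control do not use its counts, though the TMM factors and the 1 CPM limit come from all 5 libraries. The PM10/OVA/Dex library also exceeded PM10/OVA and PM10/OVA/CPX in heart muscle, in fat (123 CPM, against 43.8 and 41.3) and in cartilage markers (6.81 CPM, against 0.189 and 0.160). Its comparisons with those libraries therefore share this limit. So does PM10/OVA against PM10, since PM10 was higher in heart muscle (569 CPM, against 218) and in cartilage markers (6.05 CPM, against 0.189).

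The promoters of 4 genes that differ 2-fold or more between libraries are shown: the chromosome 7 genes Cyp2a5, Cyp2f2 and Cyp2e1, which have the same order of libraries, and Cyp4f18, which has another. Each is the 250 bases before the RefSeq start of the gene in GRCm38.p6, read 5′ to 3′ on the strand of the gene, and capitals mark matches to the motifs searched. The windows are chr7:26835089-26835338 (plus strand) for Cyp2a5, chr7:27119705-27119954 (plus) for Cyp2f2, chr7:140763569-140763818 (plus) for Cyp2e1 and chr8:72009627-72009876 (minus) for Cyp4f18.
Cyp2a5: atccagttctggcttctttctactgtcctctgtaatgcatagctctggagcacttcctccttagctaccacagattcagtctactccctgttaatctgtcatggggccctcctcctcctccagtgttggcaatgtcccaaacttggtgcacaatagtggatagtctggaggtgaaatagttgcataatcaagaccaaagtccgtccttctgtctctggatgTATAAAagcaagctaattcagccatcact
Cyp2f2: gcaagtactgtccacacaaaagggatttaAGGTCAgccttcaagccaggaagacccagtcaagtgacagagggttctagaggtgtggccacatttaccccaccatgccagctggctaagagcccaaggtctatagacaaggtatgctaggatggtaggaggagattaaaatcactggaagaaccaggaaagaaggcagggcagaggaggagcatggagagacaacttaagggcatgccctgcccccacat
Cyp2e1: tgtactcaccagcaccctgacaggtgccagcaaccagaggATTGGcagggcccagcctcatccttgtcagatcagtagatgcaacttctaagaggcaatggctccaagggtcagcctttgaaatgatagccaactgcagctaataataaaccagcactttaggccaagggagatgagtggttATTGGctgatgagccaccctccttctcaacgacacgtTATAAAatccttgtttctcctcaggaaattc
Cyp4f18: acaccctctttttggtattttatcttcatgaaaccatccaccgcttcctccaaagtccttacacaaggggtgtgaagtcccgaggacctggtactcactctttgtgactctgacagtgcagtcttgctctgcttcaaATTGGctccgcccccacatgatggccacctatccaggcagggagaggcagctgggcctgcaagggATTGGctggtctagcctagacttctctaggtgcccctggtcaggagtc
The 7 motifs, searched on both strands, were AGAACA (a steroid receptor element), TNGCGTG (aryl hydrocarbon receptor), AGGTCA (nuclear receptors), TGTTTAC (forkhead), TGANTCA (AP-1), TATAAA (the TATA box) and CCAAT (the CCAAT box). Cyp2a5 held TATAAA at -29 to -24 before its start, Cyp2e1 held TATAAA at -31 to -26 and CCAAT on the opposite strand at -210 to -206 and -68 to -64, Cyp2f2 held AGGTCA at -221 to -216, and Cyp4f18 held CCAAT on the opposite strand at -113 to -109 and -48 to -44. No 2 of these matches overlap. Over all 32851 promoters in the table, 12.4% held TATAAA, 33.8% CCAAT, 14.0% AGGTCA, 16.1% AGAACA, 6.75% TGANTCA, 4.10% TNGCGTG and 3.17% TGTTTAC. Of the 22 measured members 17 had a promoter in the table, and 3 of the 17 held TATAAA, 7 CCAAT, 1 AGGTCA, 2 AGAACA, 2 TGANTCA and none TNGCGTG or TGTTTAC. The lungs were BALB/c and the genome is that of another strain, and a match of letters is a description of the sequence.

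The measured members were 8 of 51 in the Cyp2 family, 9 of 23 in Cyp4, and 1 each in Cyp7, Cyp8, Cyp20, Cyp27 and Cyp39. None was measured of the 9 Cyp3 genes, which include the main drug oxidising P450s of liver, or of the 16 Cyp2c genes. Of the 10 Cyp2d genes 9 were at 0 counts in every library. Steroid hormone synthesis was likewise below the limit: none of the 3 Cyp11 genes, Cyp17a1, Cyp19a1 (aromatase) or Cyp21a1 was measured. The name "steroid" therefore holds here for genes of sterol and oxysterol breakdown (Cyp7b1, Cyp8b1, Cyp27a1 and Cyp39a1). In all, 44 members were at 0 in all 5 libraries and 32 had counts but a mean under 1 CPM. The measured members with the lowest means were Cyp8b1 at 1.07 CPM and Cyp4f17 at 2.26 CPM, and just below the limit lay Cyp11a1 at 0.917 CPM and Cyp4a32 at 0.830 CPM. Cyp11a1, which cuts the side chain of cholesterol, was the one unmeasured member with 30 or more counts in any library.

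Summed markers of liver and of steroid-making cells, which are known for many of the unmeasured genes, were low. The 8 hepatocyte markers, 2 of them measured, summed to 10.7 to 15.0 CPM. Most of this sum was Serpina1b, at 7.32 to 11.8 CPM, and the other measured marker, Apob, was at 0.231 to 2.95 CPM. Among the rest, Fgb, Ttr, Apoa2, Serpina1a and Tat had 1, 4, 5, 16 and 22 counts in all 5 libraries together. Alb had 8 counts in PM10/OVA/Dex, 2 in PM10/OVA/CPX, 8 in PM10/OVA, 3 in PM10 and 57 in Control. The 5 markers of steroid-making cells summed to 5.03 to 9.97 CPM. Nr5a1 had 3 counts, Mc2r 3 and Hsd3b1 1 in the 5 libraries together. Akr1b7 had 63 counts and Star 388, and Star was the 1 measured, at 3.99 to 8.19 CPM.

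Summed over all 98 genes, P450 counts came to 3181 CPM in PM10/OVA/Dex, 1873 in PM10/OVA/CPX, 2281 in PM10/OVA, 2267 in PM10 and 4168 in Control. Cyp2f2 alone made up 62.8% of the member counts in PM10/OVA/Dex, 56.0% in PM10/OVA/CPX, 56.9% in PM10/OVA, 59.4% in PM10 and 64.9% in Control. Per kilobase of annotated exon the order of mean levels was Cyp2f2 at 829 CPM per kb, Cyp4b1 at 188, Cyp2b10 at 101, Cyp2a5 at 43.7, Cyp4v3 at 16.7 and Cyp2s1 at 14.2. Whole-lung RNA cannot tell fewer cells of a type from less RNA per cell, which holds for every difference below.

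**Figure D1:**
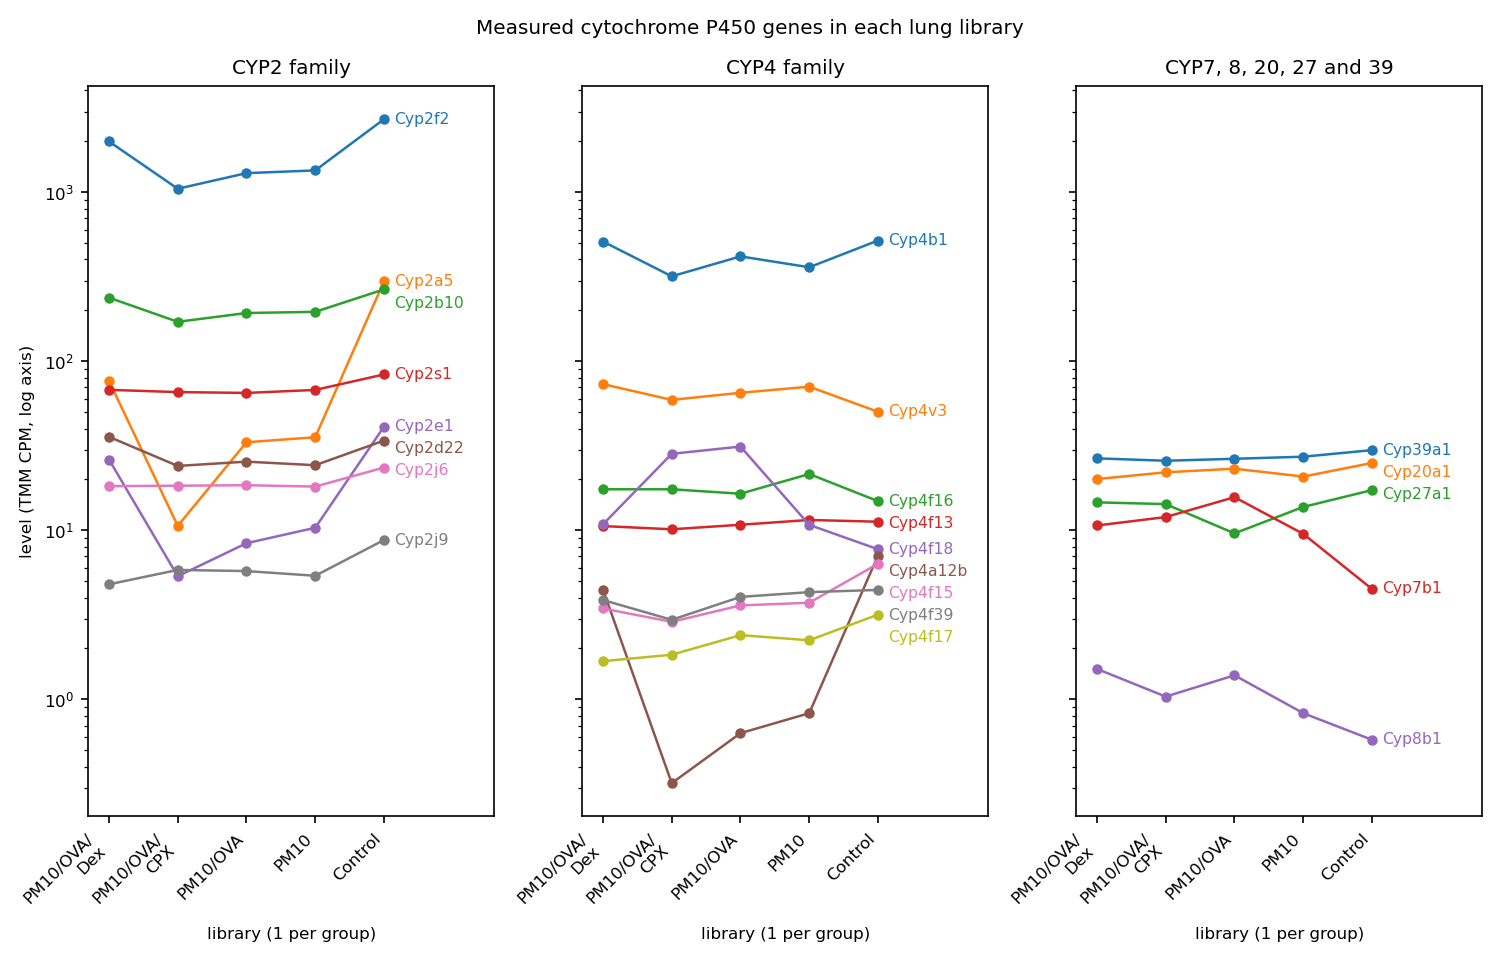
Level of each of the 22 measured P450 genes (TMM-scaled CPM, log axis) in the 5 libraries, 1 point per library, in 3 panels by family. Lines only join the points of a gene. Cyp2a5, Cyp2e1 and Cyp4a12b are highest in Control, intermediate in PM10/OVA/Dex and lowest in PM10/OVA/CPX, Cyp4f18 is highest in PM10/OVA and PM10/OVA/CPX, and 8 genes vary by under 1.5-fold over the libraries.

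The PM10 library was set against Control, which was untreated per the labels and had higher heart muscle, fat and cartilage markers. Particles, dosing into the nose and attached tissue cannot be told apart in this comparison. Lower at least 2-fold in the PM10 library were Cyp2a5, Cyp4a12b, Cyp2e1 and Cyp2f2, and no member was higher by 2-fold. These 4 of 22 members compare with 2.04% of all 14305 measured genes that were at least 2-fold lower, and 3.7% of all genes were 2-fold higher. Cyp4a12b passed the 1 CPM limit only through Control and PM10/OVA/Dex, the libraries in which it was called higher. Its calls therefore add no separate weight to this count or to those below. The threshold is on log2(CPM + 1), and Cyp2f2 lay just past it at -1.01. The median of the members on that scale was -0.33, against -0.00 for all measured genes. All 8 measured Cyp2 genes lay below 0, between -3.03 and -0.30, and 16 of the 22 members did so, where 50.3% of all genes did. The highest member was the oxysterol hydroxylase Cyp7b1 at 0.94.

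Adding OVA to PM10 went with a single 2-fold difference among the members. Cyp4f18, an enzyme of leukotriene breakdown in mouse neutrophils, was higher in PM10/OVA than in PM10. That is 1 of 22, beside 0.692% of all genes that were 2-fold higher and 1.27% that were 2-fold lower. The median of the members was -0.04, against 0.00 for all genes, and 13 of 22 lay below 0, as 49.3% of all genes did. Against Control, the PM10/OVA library had the same 4 members lower as PM10 alone (background 2.73%) and 2 members higher, Cyp4f18 and Cyp7b1 (background 3.17%). Both comparisons share the Control library, so the values are not independent of each other. The median was -0.32 for the members and 0.01 for all genes, and 17 of 22 members lay below 0 (48.7% of all genes), among them all 8 Cyp2 genes.

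Under CPX, Cyp2a5 alone was 2-fold lower than in PM10/OVA and none was 2-fold higher, where 0.762% of all genes were lower and 0.636% higher. Smaller differences ran mostly downward, since 18 of 22 members were below 0 (50.7% of all genes) with a median of -0.15 (-0.00 for all genes). Under Dex, Cyp2a5, Cyp2e1 and Cyp4a12b were at least 2-fold higher than in PM10/OVA and Cyp4f18 was 2-fold lower, where 1.2% of all genes were higher and 1.6% lower. The median of the members was 0.07, against -0.01 for all genes, and 9 of 22 lay below 0, where 51.9% of all genes did. These comparisons share the PM10/OVA library. The calls of Cyp4a12b under Dex, here and against PM10/OVA/CPX, add no separate weight, since Dex and Control alone carried it past the 1 CPM limit. Set directly against the PM10/OVA/CPX library, the PM10/OVA/Dex library had the same 3 members higher (background 1.06%) and Cyp4f18 lower (background 0.734%), with a member median of 0.13, against -0.01 for all genes, and 6 of 22 members below 0 (52.4% of all genes).

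**Figure D2:**
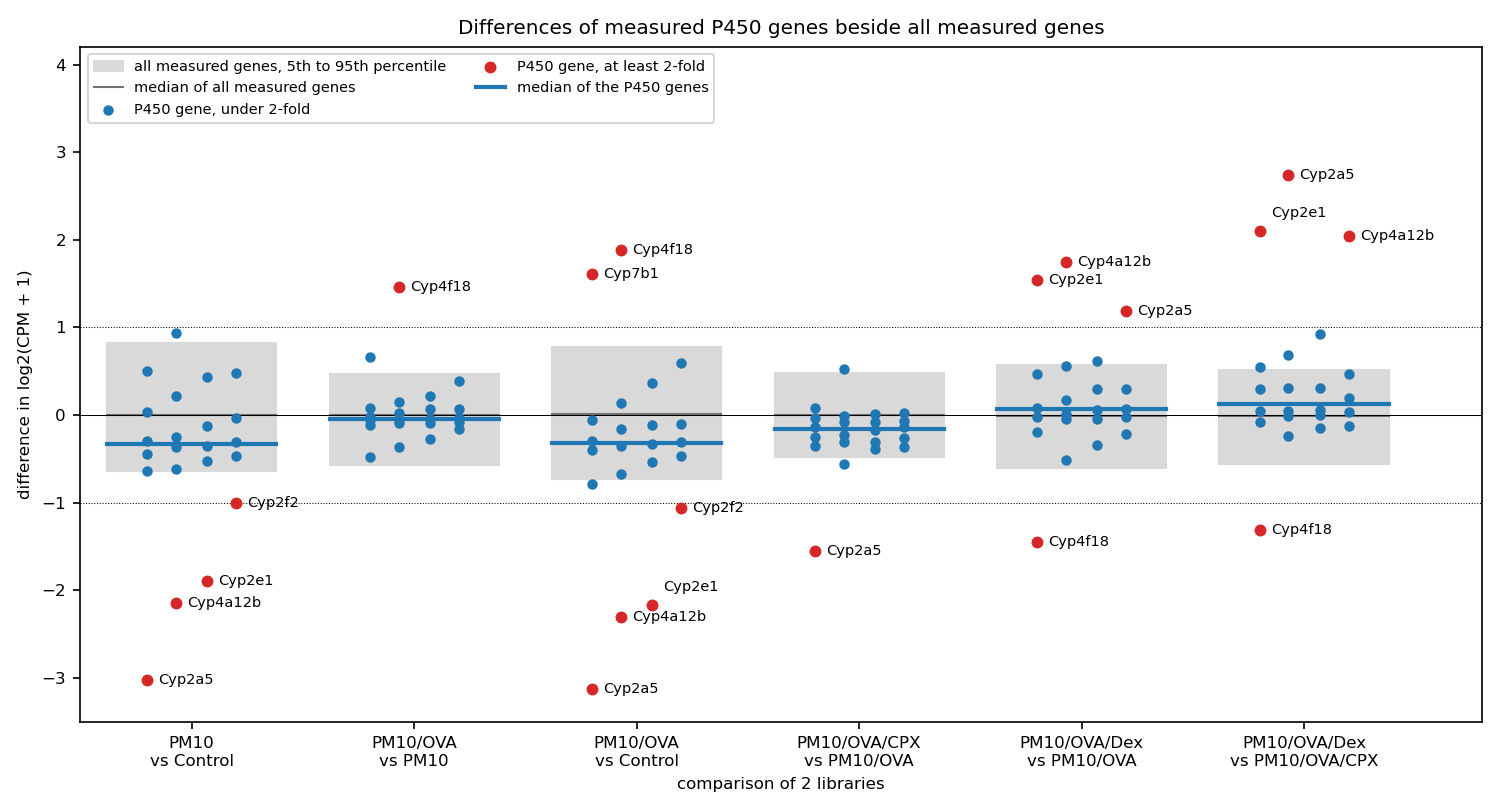
Difference in log2(CPM + 1) of each measured P450 gene in the 6 comparisons (first-named library minus second), with genes past 2-fold in red and named. Grey bands span the 5th to 95th percentile of all measured genes, and thick lines mark the median of the P450 genes (-0.33 in PM10 against Control, 0.13 in PM10/OVA/Dex against PM10/OVA/CPX).

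Over the 5 libraries, 15 of the 22 measured members had their highest level in Control, as 24.6% of all measured genes did, and 11 had their lowest level in PM10/OVA/CPX, as 20.2% of all genes did. None was highest in PM10/OVA/CPX, where 20.8% of all genes were, and 5 were lowest in Control (Cyp4f16, Cyp4f18, Cyp4v3, Cyp7b1 and Cyp8b1), where 26.3% of all genes were. The members lowest in PM10/OVA/CPX were Cyp2a5, Cyp2b10, Cyp2d22, Cyp2e1, Cyp2f2, Cyp39a1, Cyp4a12b, Cyp4b1, Cyp4f13, Cyp4f15 and Cyp4f39. Some of these orders rest on differences within the counting error, as for Cyp39a1 and Cyp4f13. As a plain ratio of CPM, highest over lowest level was at least 2-fold in 8 members and under 1.5-fold in 8. The share of all genes past these limits was not computed, so the counts only describe the members. Cyp4f15 and Cyp8b1 pass 2-fold by this ratio but in none of the 6 comparisons on log2(CPM + 1).

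Among the pollutant oxidising enzymes, Cyp2a5, which hydroxylates coumarin and nicotine, had the widest range of all. It lies at chr7:26835305-26843548 (GRCm38, plus strand, protein coding). Its level was 76.7 CPM in PM10/OVA/Dex, 10.6 in PM10/OVA/CPX, 33.2 in PM10/OVA, 35.5 in PM10 and 297 in Control, from 912, 133, 526, 429 and 5155 counts. Control was far above the rest, PM10 and PM10/OVA were close to each other, and the Dex and CPX libraries lay on opposite sides of them. The fold, with its exact 95% interval for counting error, was 8.36-fold lower in PM10 than in Control (7.58 to 9.25) and 8.96-fold lower in PM10/OVA than in Control (8.19 to 9.82). PM10/OVA/CPX was 3.12-fold lower than PM10/OVA (2.58 to 3.81). PM10/OVA/Dex was 2.31-fold higher than PM10/OVA (2.07 to 2.58) and 7.22-fold higher than PM10/OVA/CPX (6.01 to 8.73). The ratio of PM10/OVA to PM10 was 0.934 (0.820 to 1.06), an interval that includes 1. PCR reads without molecular identifiers are not independent molecules, so these intervals are narrower than the real error between lungs.

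Cyp2a4, a steroid hydroxylase, shares 98.5% of its coding bases with Cyp2a5, and how shared reads were counted is not stated in the sources used here. Its 5 counts in all, against 7155 for Cyp2a5, mean that the split between the pair is uncertain while the sum is set by the Cyp2a5 counts.

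Cyp2f2 (chr7:27119909-27133660, plus strand), the naphthalene oxidising enzyme, was at 1997 CPM in PM10/OVA/Dex, 1049 in PM10/OVA/CPX, 1297 in PM10/OVA, 1346 in PM10 and 2704 in Control. Control and PM10/OVA/Dex held the high end and the other 3 libraries sat together below them. PM10 was 2.01-fold lower than Control (1.97 to 2.05) and PM10/OVA 2.08-fold lower (2.05 to 2.12). PM10/OVA/CPX was 1.24-fold lower than PM10/OVA (1.21 to 1.26), while PM10/OVA/Dex was 1.54-fold higher (1.51 to 1.57), and the direct ratio of Dex to CPX was 1.90 (1.86 to 1.95). With 13133 to 46904 counts per library, counting error is small here and the unknown spread between lungs is the limit.

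Cyp2e1 (chr7:140763739-140774987, plus strand), which oxidises ethanol and small solvents, followed a like order at lower levels. It stood at 26.2 CPM in PM10/OVA/Dex, 5.35 in PM10/OVA/CPX, 8.39 in PM10/OVA, 10.4 in PM10 and 41.1 in Control. Again Control and PM10/OVA/Dex were high and PM10/OVA/CPX was lowest. PM10 was 3.97-fold lower than Control (3.27 to 4.83), PM10/OVA 4.89-fold lower than Control (4.06 to 5.93) and PM10/OVA/CPX 1.57-fold lower than PM10/OVA (1.16 to 2.14). PM10/OVA/Dex was 3.13-fold higher than PM10/OVA (2.55 to 3.86) and 4.90-fold higher than PM10/OVA/CPX (3.76 to 6.48).

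Cyp2b10, the enzyme known as a target of the constitutive androstane receptor in mouse liver, had a narrower range of 238 CPM in PM10/OVA/Dex, 171 in PM10/OVA/CPX, 193 in PM10/OVA, 196 in PM10 and 266 in Control. Its order was that of Cyp2f2, with no 2-fold difference, since PM10 was 1.36-fold lower than Control and PM10/OVA/Dex 1.39-fold higher than PM10/OVA/CPX (1.31 to 1.47). Cyp2s1, an extrahepatic enzyme of epithelia, was nearly level at 67.8 CPM in PM10/OVA/Dex, 65.7 in PM10/OVA/CPX, 65.0 in PM10/OVA, 67.7 in PM10 and 83.6 in Control. Cyp2d22, in the mouse branch of the drug oxidising Cyp2d genes, was at 35.7 CPM in PM10/OVA/Dex, 24.0 in PM10/OVA/CPX, 25.5 in PM10/OVA, 24.3 in PM10 and 34.0 in Control. It was the one Cyp2 member whose highest library was PM10/OVA/Dex, 1.40-fold above PM10/OVA (1.22 to 1.61). The arachidonic acid epoxygenases Cyp2j6 and Cyp2j9 ran between 18.1 and 23.5 CPM and between 4.79 and 8.76 CPM, both highest in Control.

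Of the 22 measured members 5 lie on chromosome 7, and 4 of these (Cyp2s1, Cyp2b10, Cyp2a5 and Cyp2f2) belong to a cluster of 13 Cyp2 members within 1356 kb, chr7:25802475-27158668. The other 9 genes of the cluster were assigned few counts: none had more than 8 over the 5 libraries together, and Cyp2b13 and Cyp2g1 had 0. For Cyp2a4 this rests on the uncertain split of reads with Cyp2a5. Neighbours in the cluster therefore differed in assigned counts, and among the measured ones the range between libraries ran from 1.29-fold (Cyp2s1) to 28.0-fold (Cyp2a5). Cyp2e1 lies on the same chromosome outside the cluster. The Cyp4f genes form a second group, with 6 measured, of which 5 are on chromosome 17.

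**Figure D3:**
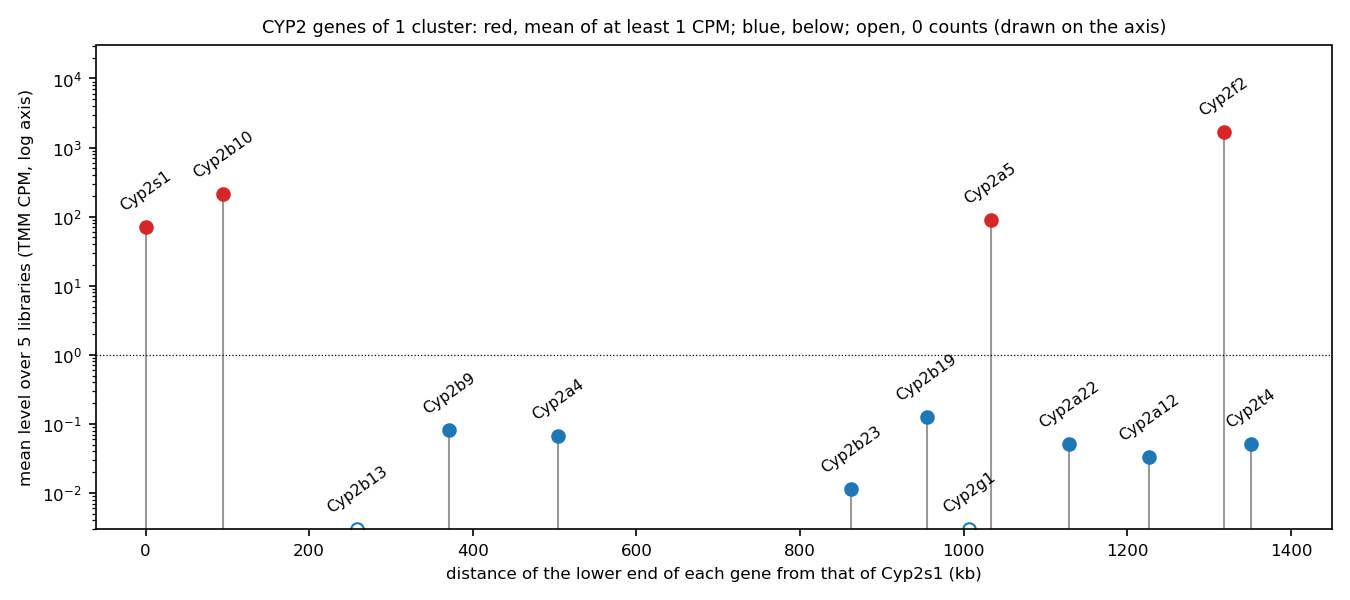
Mean level over the 5 libraries (TMM-scaled CPM, log axis) of the 13 Cyp2 genes of the chromosome 7 cluster, against the distance of each gene from Cyp2s1 in kb. The 4 measured genes (red) stand above the dotted line at 1 CPM, 7 others (blue) have counts but lie below it, and 2 (open circles, drawn on the axis) have 0 counts.

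In the Cyp4 family, Cyp4b1 (chr4:115624725-115647723, minus strand), a lung enzyme that activates the plant toxin 4-ipomeanol, was at 511 CPM in PM10/OVA/Dex, 318 in PM10/OVA/CPX, 417 in PM10/OVA, 360 in PM10 and 518 in Control. It differed less than 2-fold throughout, and Dex and Control were nearly equal. PM10 was 1.44-fold lower than Control (1.39 to 1.49), PM10/OVA/CPX 1.31-fold lower than PM10/OVA (1.26 to 1.37), and PM10/OVA/Dex 1.61-fold higher than PM10/OVA/CPX (1.54 to 1.67).

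Cyp4a12b (chr4:115411624-115439034, plus strand), a fatty acid hydroxylase known from mouse kidney, had few counts: 53 in PM10/OVA/Dex, 4 in PM10/OVA/CPX, 10 in PM10/OVA, 10 in PM10 and 123 in Control. Control and PM10/OVA/Dex stood above the other libraries, as for Cyp2e1. The gene reached the mean of 1 CPM only through them, being at 0.319 to 0.828 CPM in the others. PM10 was 8.56-fold lower than Control (4.50 to 18.3), PM10/OVA 11.2-fold lower than Control (5.91 to 24.0), and PM10/OVA/Dex 7.07-fold higher than PM10/OVA (3.56 to 15.6). The ratio of PM10/OVA/CPX to PM10/OVA was 0.506 with an interval of 0.116 to 1.76, so at this depth no difference was detectable. Its near copy Cyp4a12a, 98.5% alike in coding sequence, had 3 counts in all.

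Cyp4f18 (chr8:71988482-72009626, minus strand), which hydroxylates leukotriene B4 in mouse neutrophils, had another order of libraries than the genes above. It was at 10.9 CPM in PM10/OVA/Dex, 28.4 in PM10/OVA/CPX, 31.3 in PM10/OVA, 10.8 in PM10 and 7.73 in Control, from 129, 355, 496, 130 and 134 counts. The libraries with OVA and without Dex were high and the other 3 were low. PM10/OVA was 2.91-fold higher than PM10 (2.39 to 3.55) and 4.05-fold higher than Control (3.34 to 4.94). PM10/OVA/Dex was 2.88-fold lower than PM10/OVA (2.37 to 3.53), and the ratio of PM10/OVA/CPX to PM10/OVA was 0.906 (0.788 to 1.04), an interval that includes 1.

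The remaining Cyp4 members showed no 2-fold difference in any comparison. Cyp4v3, a fatty acid hydroxylase whose human counterpart is mutated in a retinal dystrophy, was at 73.2 CPM in PM10/OVA/Dex, 59.1 in PM10/OVA/CPX, 65.1 in PM10/OVA, 70.7 in PM10 and 50.3 in Control, which put Control lowest. Cyp4f16 was highest in PM10 at 21.5 CPM, against 14.9 in Control, and Cyp4f13 stayed between 10.1 and 11.5 CPM. Cyp4f15, Cyp4f17 and Cyp4f39 were at 1.68 to 6.34 CPM, each highest in Control. Cyp4f16 shares 95.9% of its coding bases with Cyp4f37, which had 46 counts beside its 1206. Cyp4f39 corresponds to the human enzyme that hydroxylates very long fatty acids of the skin barrier.

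The sterol enzymes differed in their order of libraries. Cyp7b1 (chr3:18071950-18243338, minus strand), which hydroxylates oxysterols such as 25-hydroxycholesterol, was at 10.7 CPM in PM10/OVA/Dex, 12.0 in PM10/OVA/CPX, 15.7 in PM10/OVA, 9.53 in PM10 and 4.50 in Control. Control was lowest and PM10/OVA highest, with the treated libraries between. PM10/OVA was 3.49-fold higher than Control (2.70 to 4.56) and 1.65-fold higher than PM10 (1.32 to 2.08), and PM10 was 2.12-fold higher than Control (1.58 to 2.86), which falls short of 2-fold on the log2(CPM + 1) scale. The ratio to PM10/OVA was 0.680 in PM10/OVA/Dex (0.545 to 0.845) and 0.763 in PM10/OVA/CPX (0.618 to 0.938). Cyp27a1, the sterol 27-hydroxylase of mitochondria, was lowest in PM10/OVA, at 14.6 CPM in PM10/OVA/Dex, 14.3 in PM10/OVA/CPX, 9.59 in PM10/OVA, 13.8 in PM10 and 17.3 in Control. PM10/OVA was 1.80-fold lower than Control (1.48 to 2.21), and PM10/OVA/Dex and PM10/OVA/CPX were 1.53-fold and 1.49-fold above PM10/OVA. Cyp39a1, an oxysterol hydroxylase, stayed at 25.8 to 29.8 CPM, and Cyp20a1, whose substrate is not established, at 20.1 to 25.0 CPM. Cyp8b1, the sterol hydroxylase that sets the kind of bile acid made in liver, had 10 to 22 counts per library.

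Several cell and tissue markers varied beside these genes. Sums run over all the listed genes in the files. The 9 club cell markers, 8 of them measured, summed to 27308 CPM in PM10/OVA/Dex, 21817 in PM10/OVA/CPX, 20307 in PM10/OVA, 15123 in PM10 and 22333 in Control, most of it Scgb1a1. Against 100 counts of Scgb1a1, Cyp2f2 had 7.96 in PM10/OVA/Dex, 5.12 in PM10/OVA/CPX, 6.73 in PM10/OVA, 9.43 in PM10 and 12.9 in Control. Cyp2a5 had 0.306 in PM10/OVA/Dex, 0.0518 in PM10/OVA/CPX, 0.172 in PM10/OVA, 0.249 in PM10 and 1.42 in Control. Both ratios were highest in Control and lowest in PM10/OVA/CPX, while Cyp4b1 kept within 1.55 to 2.52 counts per 100 of Scgb1a1. Another club cell marker, Scgb3a2, had the library order of Cyp2f2, at 595 CPM in PM10/OVA/Dex, 264 in PM10/OVA/CPX, 317 in PM10/OVA, 356 in PM10 and 603 in Control. None of the other measured club cell markers had this order. Scgb1a1, Scgb3a1, Cldn10 and Reg3g were highest in PM10/OVA/Dex, Muc5b and Lypd2 in PM10/OVA/CPX, and Gabrp in PM10/OVA. Against 100 counts of Scgb3a2, Cyp2f2 had 336 in PM10/OVA/Dex, 397 in PM10/OVA/CPX, 410 in PM10/OVA, 378 in PM10 and 449 in Control, a narrow range with PM10/OVA/Dex lowest. Cyp2a5 had 12.9 in PM10/OVA/Dex, 4.02 in PM10/OVA/CPX, 10.5 in PM10/OVA, 9.97 in PM10 and 49.3 in Control on this base. The order for Cyp2f2 thus depends on the marker chosen, and Cyp2a5 was highest in Control and lowest in PM10/OVA/CPX with either. The summed markers of large airway, gland and basal cells were at 1135 CPM in PM10/OVA/Dex, 424 in PM10/OVA/CPX, 332 in PM10/OVA, 244 in PM10 and 1860 in Control, with 7 of the 8 measured. This sum was high in the same libraries as Cyp2a5 and Cyp2f2, and the part of these cells in those differences was not tested. Within the list, Bpifa1, Ltf, Krt15, Krt5 and Trp63 were highest in Control. Bpifb1 was at 308 CPM in PM10/OVA/Dex and 205 in PM10/OVA/CPX, above the 152 in Control. Tff2 was highest in PM10/OVA/CPX at 79.1 CPM and lowest in Control at 6.52. Bpifa1, secreted in the nose and upper airways, was at 464 CPM in PM10/OVA/Dex, 60.1 in PM10/OVA/CPX, 88.8 in PM10/OVA, 74.5 in PM10 and 1264 in Control.

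The fat markers, all 8 measured, summed to 123 CPM in PM10/OVA/Dex, 41.3 in PM10/OVA/CPX, 43.8 in PM10/OVA, 63.0 in PM10 and 407 in Control, an order like that of Cyp2e1 and Cyp4a12b. The fat hormone Adipoq was at 8.83 CPM in PM10/OVA/Dex, 2.63 in PM10/OVA/CPX, 2.46 in PM10/OVA, 3.98 in PM10 and 36.0 in Control, and Ucp1 of brown fat was at 0 counts in PM10/OVA/CPX, PM10/OVA and PM10. Cartilage markers, 3 of 6 listed measured, summed to 6.81 CPM in PM10/OVA/Dex, 0.160 in PM10/OVA/CPX, 0.189 in PM10/OVA, 6.05 in PM10 and 70.7 in Control. The part of attached tissue in the levels of Cyp2e1, Cyp4a12b and Cyp2a5 was not tested, and with 1 library per group the dissection and the treatment cannot be told apart.

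Neutrophil markers, all 7 measured, summed to 312 CPM in PM10/OVA/Dex, 560 in PM10/OVA/CPX, 656 in PM10/OVA, 219 in PM10 and 185 in Control, with the same high and low libraries as Cyp4f18. B cell markers were at 76.3 CPM in PM10/OVA/Dex, 138 in PM10/OVA/CPX, 203 in PM10/OVA, 125 in PM10 and 168 in Control. Monocyte and interstitial macrophage markers were at 420 CPM in PM10/OVA/Dex, 523 in PM10/OVA/CPX, 485 in PM10/OVA, 622 in PM10 and 206 in Control. This sum was lowest in Control, as was Cyp7b1, but highest in PM10, where Cyp7b1 was highest in PM10/OVA. The neutrophil sum had the full library order of Cyp7b1. Alveolar macrophage markers, also lowest in Control, were at 414 CPM in PM10/OVA/Dex, 492 in PM10/OVA/CPX, 407 in PM10/OVA, 398 in PM10 and 228 in Control. The part of these cells in the levels of Cyp4f18 and Cyp7b1 was not tested. Alveolar type 2 cell markers (20398 to 24747 CPM) and endothelial markers (4318 to 4981 CPM) varied little.

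**Figure D4:**
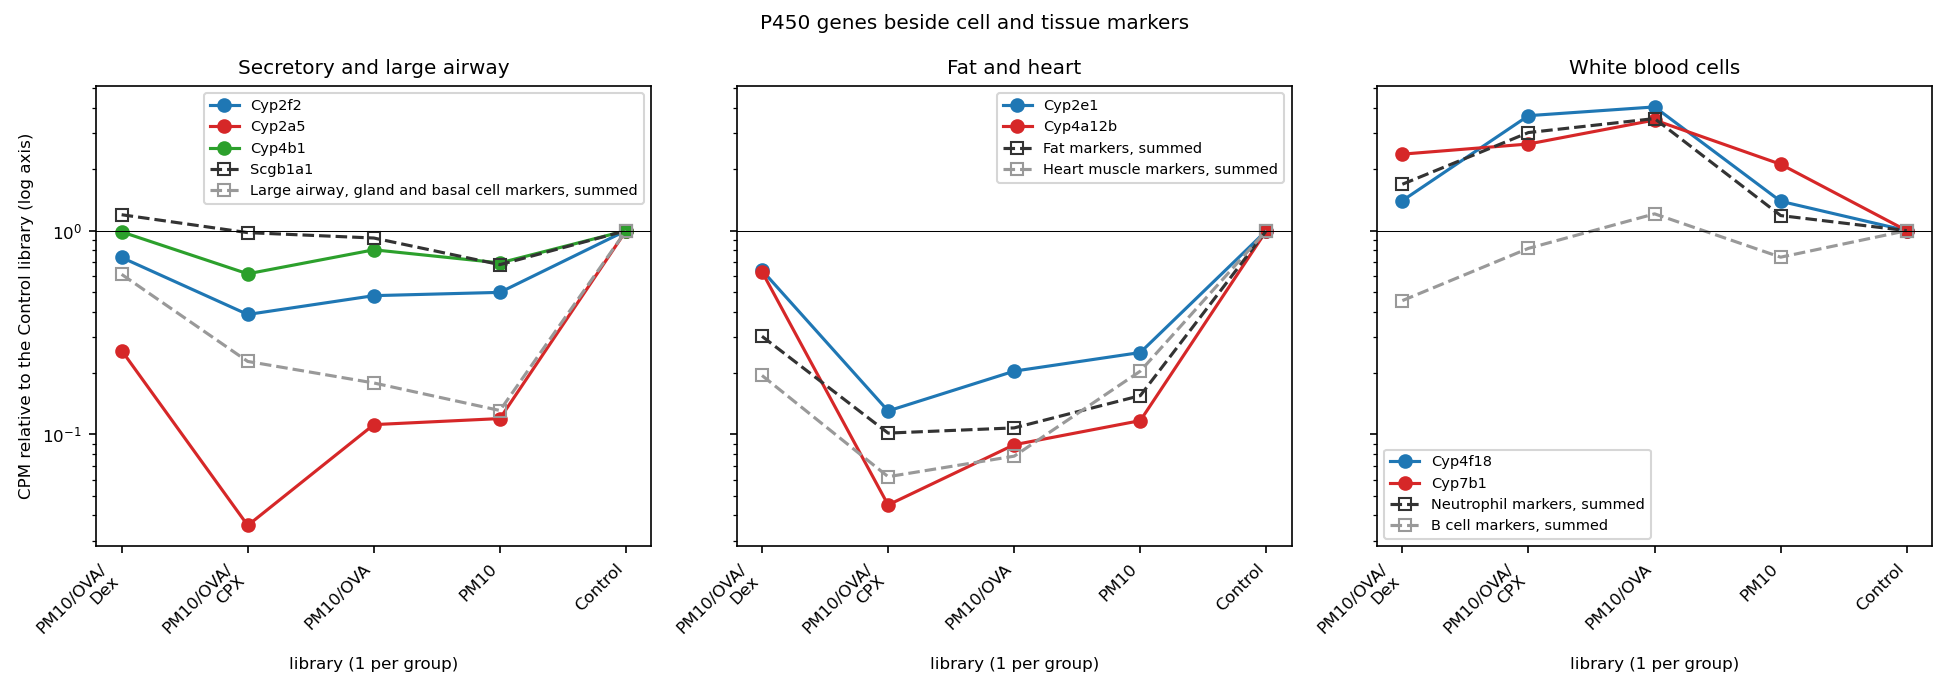
CPM relative to the Control library (log axis) of 7 P450 genes (filled circles), of Scgb1a1 and of summed marker genes (open squares, dashed) in the 5 libraries, in 3 panels. Cyp2a5 lies far below its Control level in the other 4 libraries (10.6 to 76.7 CPM, against 297 CPM in Control). Cyp2e1 and Cyp4a12b have the library order of the summed fat markers. For Cyp4a12b this rests on 10, 10 and 4 counts in PM10, PM10/OVA and PM10/OVA/CPX. The summed heart markers have that order too, except that PM10 (569 CPM) lies slightly above PM10/OVA/Dex (541 CPM). Cyp4f18 runs beside neutrophil markers.

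Genes that work with P450 enzymes were followed as lists by role. Of 13 electron donors and haem enzymes measured, Hmox1 was the one with a 2-fold difference, higher in PM10 and in PM10/OVA than in Control (3.7% and 3.17% of all measured genes were) and lower under Dex and under CPX than in PM10/OVA (1.6% and 0.762%). This enzyme, which breaks down haem, was at 40.0 CPM in PM10/OVA/Dex, 43.3 in PM10/OVA/CPX, 153 in PM10/OVA, 77.3 in PM10 and 27.7 in Control. PM10/OVA was highest and both treated libraries were well below it, by 3.82-fold in PM10/OVA/Dex (3.47 to 4.23) and 3.54-fold in PM10/OVA/CPX (3.22 to 3.89). The reductase Por ran the way of Cyp2b10, at 313 CPM in PM10/OVA/Dex, 244 in PM10/OVA/CPX, 246 in PM10/OVA, 271 in PM10 and 367 in Control. Of 16 nuclear receptors 11 were measured, and none differed 2-fold in any of the 6 comparisons. The drug sensors of liver were near the floor, with Nr1i2 (PXR) at 8 counts in PM10/OVA/Dex, 7 in PM10/OVA/CPX, 7 in PM10/OVA, 10 in PM10 and 23 in Control, and Nr1i3 (CAR) at 3 counts in all. The glucocorticoid receptor Nr3c1 was at 252 to 342 CPM.

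Of 25 other phase I enzymes, all measured, 5 were at least 2-fold lower in PM10 than in Control (Ephx2, Adh7, Ces1f, Pon1 and Ces1g) and none was higher, with a median of -0.43. Over all measured genes 2.04% were 2-fold lower and the median was -0.00. The same 5 were at least 2-fold lower in PM10/OVA than in Control, where 2.73% of all genes were, and the median was -0.48, against 0.01 for all genes. Pon1, an esterase that hydrolyses organophosphates, was at 32.4 CPM in PM10/OVA/Dex, 9.34 in PM10/OVA/CPX, 23.2 in PM10/OVA, 19.6 in PM10 and 49.8 in Control. Control was highest and PM10/OVA/CPX lowest, as for Cyp2e1. Pon1 was 3.47-fold higher in PM10/OVA/Dex than in PM10/OVA/CPX (2.81 to 4.30). Between PM10/OVA/CPX and PM10/OVA, Ces1f was at least 2-fold higher and Pon1 at least 2-fold lower, and the median was 0.11, beside 0.636% of all genes higher, 0.762% lower and a median of -0.00.

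Of 38 phase II conjugating enzymes 27 were measured. The sulphotransferases Sult1d1 and Sult1c1 were 2-fold lower in PM10 and in PM10/OVA than in Control, which makes 2 of 27 in each (2.04% and 2.73% of all genes). They were 2-fold higher in PM10/OVA/Dex than in PM10/OVA and in PM10/OVA/CPX (1.2% and 1.06% of all genes). Sult1c1 had 56 counts in PM10/OVA/Dex, 0 in PM10/OVA/CPX, 0 in PM10/OVA, 2 in PM10 and 38 in Control. It reached the mean of 1 CPM only through the libraries in which it was called higher, so its calls add no separate weight to these counts. Sult1d1 was at 21.4 CPM in PM10/OVA/Dex, 3.75 in PM10/OVA/CPX, 8.01 in PM10/OVA, 9.36 in PM10 and 45.4 in Control, an order shared with Cyp2a5. The other calls were Ugt1a7c, higher in PM10 than in Control (1 of 27, with 3.7% of all genes), and Gsto1, higher in PM10/OVA/CPX than in PM10/OVA at 158 against 72.0 CPM (1 of 27, with 0.636% of all genes). In a list of steroid and oxysterol genes outside the P450 symbols 16 were measured. Ch25h and Hsd11b2 were 2-fold higher in PM10 than in Control (3.7% of all genes were), and these with Ebi3 in PM10/OVA against Control (3.17%). Hsd11b2 was 2-fold lower in PM10/OVA/CPX than in PM10/OVA (0.762%), and Hsd11b2 and Ch25h in PM10/OVA/Dex than in PM10/OVA (1.6%). Ebi3, a cytokine subunit and not a steroid enzyme, was 2.57-fold higher in PM10/OVA than in Control (1.73 to 3.89). Ch25h, which makes the 25-hydroxycholesterol that Cyp7b1 clears, was at 13.5 CPM in PM10/OVA/Dex, 20.9 in PM10/OVA/CPX, 36.8 in PM10/OVA, 21.9 in PM10 and 2.88 in Control. Its lowest and highest libraries were those of Cyp7b1. PM10 was 7.59-fold higher than Control (5.59 to 10.5) and PM10/OVA/Dex 2.74-fold lower than PM10/OVA (2.29 to 3.28). Hsd11b2, which inactivates corticosterone, was at 1.18 CPM in PM10/OVA/Dex, 1.76 in PM10/OVA/CPX, 6.56 in PM10/OVA, 4.97 in PM10 and 1.33 in Control, so that PM10/OVA and PM10 stood above the other libraries.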

How the data were processed

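The authors deposited raw counts, whole numbers of reads for each gene symbol, in a file for every library. Per the submitters' processing notes, TopHat and mm10 were used, and per the labels' protocols the libraries came from Trizol RNA with a directional kit. The sources used here do not name the counting tool, annotation or strand setting, so overlapping and antisense genes are uncertain. All 23183 symbols entered trimmed-mean (TMM) scaling (edgeR 4.0.16, R 4.3.3). Differences were taken on log2(CPM + 1), which understates low genes, and calls were made at 2-fold. Folds of named genes are CPM ratios with exact conditional (Clopper-Pearson) 95% intervals, which cover counting error only. Without replicates no p-value was computed. Of the phase I list, 1 gene is not reported here, though the medians of the list include it. Genes named are members with a 2-fold difference, further members by family, and listed genes with a 2-fold difference. Members and lists were chosen with earlier results of these data known. GENCODE M21 (GRCm38) gave positions, exon lengths and coding sequences for 97 of 98 members, and RefSeq the promoters. The calculation was tested on simulated counts with known changes and counting error only, which does not cover the spread between lungs. Alternatives were DESeq2 1.42.0 size factors, library totals, other pseudocounts, filters and thresholds, and summed near-identical genes.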

Additional observations from a re-analysis of the deposited data

How the results depend on the processing

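Of 48 recounts of members past 2-fold under other scalings, pseudocounts, filters, thresholds or summed near-identical genes, 44 stayed within 1.5 times the value given. These recounts were not scored for direction. Of 36 medians, 35 stayed within the 95% order-statistic interval of the median given, which is wide because the members differ much. No median took the opposite sign, though some became 0 without the filter on low genes. Of 108 recomputed ratios of named members, 105 stayed within their counting interval and 3 left it (Cyp2f2 and Cyp4b1, scaled by library totals), all 108 lying at 0.965 to 1.005 times the value given. With a 1.5-fold threshold, 7 of 22 members differed in PM10 against Control (4 at 2-fold), where 13.9% of all genes did. In PM10/OVA against PM10, 2 of 22 did (1 at 2-fold), close to the 7.58% of all genes. With no filter on low genes, 2 of 54 members differed in PM10/OVA against PM10 (1.60% of all genes) and 2 in PM10/OVA/CPX against PM10/OVA (1.25%). With the filter it was 1 in each, Cyp11a1 being added both times. The median without it was 0 in PM10/OVA/CPX against PM10/OVA, against -0.15. It was -0.13, against -0.33, in PM10 against Control, and -0.11, against -0.32, in PM10/OVA against Control. The cause was that 54 members then entered, many with few counts. Without the Control library, 12 of 22 members were lowest in PM10/OVA/CPX (24.0% of all genes), against 11 with it; this recount and the summing of genes with coding sequences at least 90% identical were chosen after seeing the data. The planned summing by protein identity was not run. No paired analysis was possible because each group has 1 library, and for the same reason no library could be left out within a group. Depth limits Cyp4a12b, Cyp8b1 and every member under 1 CPM.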

Other observations

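Cyp11a1, under the 1 CPM limit, had 6 counts in PM10/OVA/Dex, 3 in PM10/OVA/CPX, 38 in PM10/OVA, 7 in PM10 and 15 in Control. The PM10/OVA library was highest, 4.13-fold above PM10 (1.82 to 11.0), and PM10/OVA/Dex was 4.75-fold below it (1.99 to 13.8). The gene was singled out after its values were seen.

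Of the P450 enzymes with other symbols, the thromboxane synthase Tbxas1 was at 29.9 CPM in PM10/OVA/Dex, 43.7 in PM10/OVA/CPX, 38.1 in PM10/OVA, 32.0 in PM10 and 12.3 in Control. Control was lowest, and PM10 was 2.60-fold higher than Control (2.20 to 3.09). The prostacyclin synthase Ptgis was at 76.9 CPM in PM10/OVA/Dex, 58.5 in PM10/OVA/CPX, 68.4 in PM10/OVA, 63.5 in PM10 and 83.1 in Control, with no 2-fold difference.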
